A study of Mus musculus with 6 samples.

Results

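Mitochondrial ribosomal protein genes were examined in 21EM15 cells, an epithelial line derived from the mouse lens, after knockdown of Tdrd7. The members are all genes whose symbol on the array platform is Mrpl or Mrps followed by a number and at most 1 letter. The array carries 132 probes for 76 such genes, and 109 probes of 73 genes were detected (detection p under 0.05) on every array of the knockdown group, the control group or both. These 73 genes are among 9200 genes that met the same condition. In the 3 knockdown samples a lentivirus delivered a hairpin (shRNA) against Tdrd7, whose product is a Tudor domain protein found in RNA granules of the cytoplasm. In the 3 control samples the lentivirus carried GFP. All 6 samples were of this single cell line, and the labels name no shRNA in the control samples, so effects of the hairpin construct itself and of reduced Tdrd7 cannot be told apart. Total RNA was labelled with biotin and hybridised to 1-colour Illumina bead arrays, numbered 4 to 6 for knockdown and 1 to 3 for control as in the scanner table. Separate cultures are not stated for the replicates, and p-values therefore reflect only how far these samples differ, perhaps for technical reasons.

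Mitochondria keep ribosomes of their own, which translate the messages of mitochondrial DNA into subunits of the respiratory chain and the ATP synthase. The RNA of these ribosomes is made inside the organelle, while their proteins are encoded in the nucleus, made in the cytosol and imported. Part of them descend from proteins of the bacterial ribosome and the others have no bacterial counterpart. Mrps names the small subunit, which binds the message and reads its codons, and Mrpl the large subunit, which joins the amino acids. Mrps18a and Mrps30 are exceptions that lie in the large subunit. In humans, mutations in several of these genes cause failures of mitochondrial energy production.

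On each array 37.2% to 38.8% of probes were detected. The arrays differed in the scale of brighter signals before normalization: the member Mrps24, for example, had 5937, 6823 and 3570 intensity units on knockdown arrays 4, 5 and 6, against 6203, 5085 and 4873 on control arrays 1, 2 and 3. Tdrd7 itself had a signal of 295, 252 and 308 intensity units on knockdown arrays 4, 5 and 6, against 854, 804 and 905 on control arrays 1, 2 and 3, and the groups did not overlap. Its limma adjusted p over 9200 genes was 0.765, and 0 genes (0%) passed an adjusted p of 0.05, while 303 (3.29%) had an unadjusted p under 0.05. Of 11 markers of lens epithelium, 6 were detected (Pax6, Six3, Prox1, Cdh2, Cryab and Sox2), while Foxe3, Maf, Cdh1, Cryaa and Mab21l1 were not above background. None of the 9 lens fibre markers or the 5 endothelial markers with a probe was detected, and 1 of 5 immune markers (Cd3e) was. Of 7 markers of fibroblasts or mesenchyme, 6 were detected. In RNA from whole cultures, fewer cells of a kind and less RNA per cell cannot be told apart.

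The mitochondrial ribosomal protein genes differed little between knockdown and control. Of the 73 members, 29 were fitted higher and 44 lower in knockdown, with a median log2 fold change of -0.03 (knockdown over control), quartiles of -0.15 and 0.04, and extremes of -0.46 and 0.26. Over all 9200 genes the median was 0.01 and 47.7% were fitted lower. In the limma fit 0 of 73 members passed an adjusted p of 0.05 over all genes (0% of all genes did), and 1 had an unadjusted p under 0.05. Knockdown arrays lay entirely below the control arrays for 2 members, where this held for 3.5% of all genes, and entirely above for 0 members, where it held for 4.33%, so that groups without overlap made up 7.83% of all genes. The lowest adjusted p of a member in limma was 0.998, so none of the differences below passed the test.

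The precision of the 3 arrays in each group limits what this shows. The median 95% confidence interval of a member reached 0.48 log2 units to each side. For 33 of the 73 members the whole interval lay within a 1.5-fold change either way, and for 72 it lay within a 2-fold change. The exception was Mrpl9, whose interval reached -1.03. The share of members fitted lower depended on the scaling: with 75th percentile scaling 39 were higher and 34 lower, and without normalization between arrays 41 were higher and 32 lower, so the small excess of lower members is no direction of the family.

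**Figure D1:**
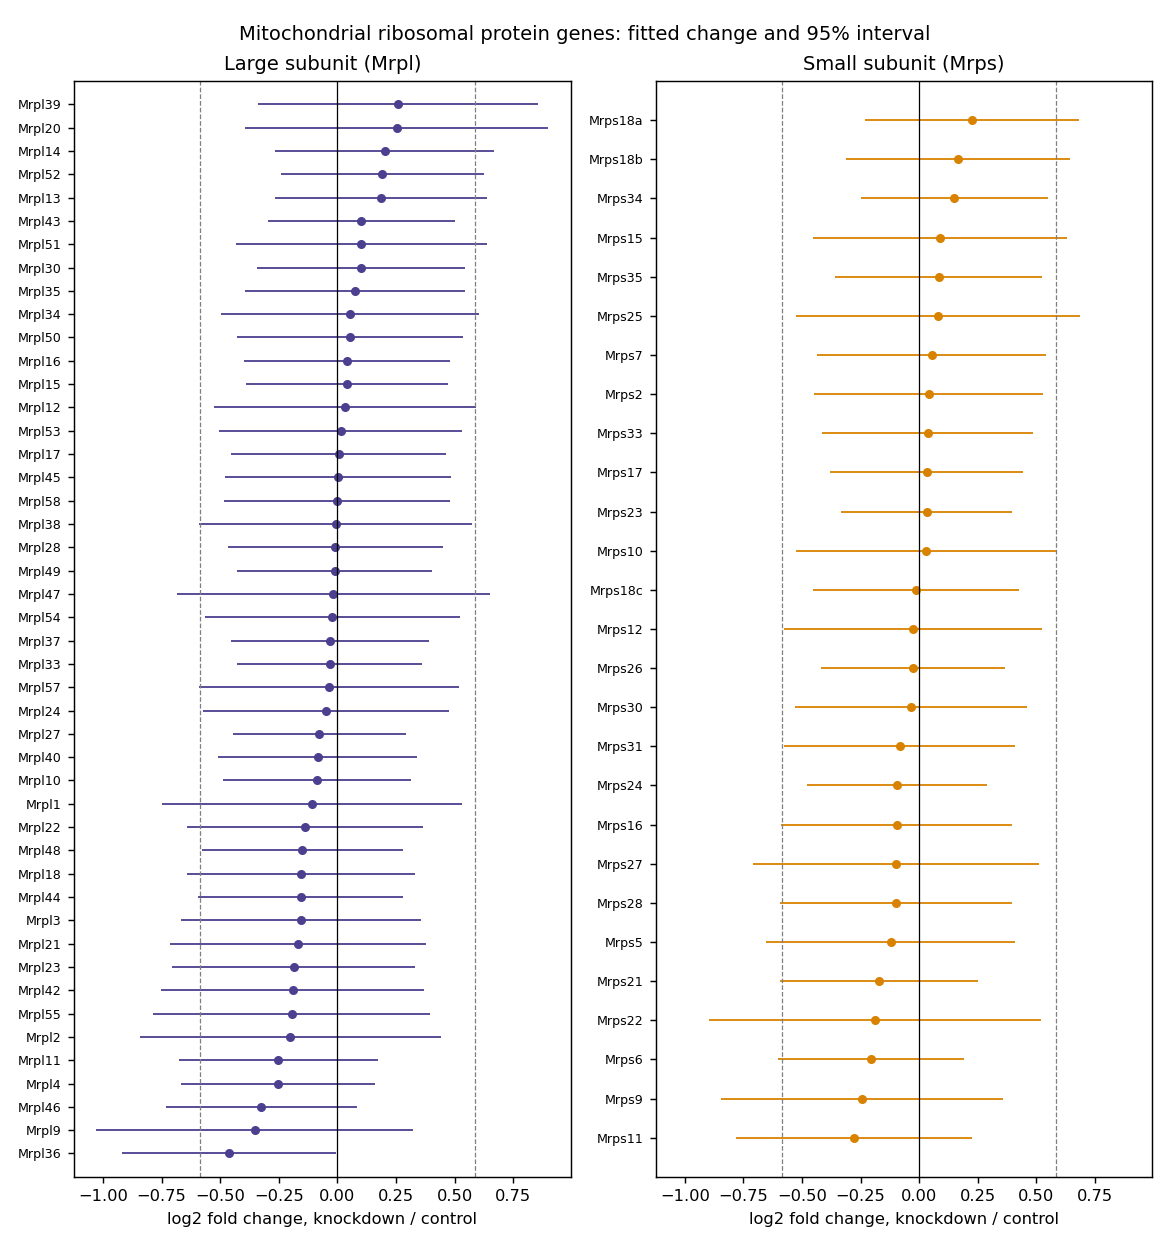
Fitted log2 fold change, knockdown over control, for the 46 tested Mrpl genes (left) and 27 tested Mrps genes (right). Points are estimates, bars are 95% intervals from limma on 3 arrays per group, and dashed lines mark a 1.5-fold change. Every interval except that of Mrpl36 includes 0.

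Both subunits gave like medians. The 46 tested of 48 large subunit genes had a median log2 fold change of -0.03, with 17 higher and 29 lower, and the 27 tested of 28 small subunit genes had a median of -0.03, with 12 higher and 15 lower. With Mrps18a and Mrps30 counted in the large subunit, the medians were -0.03 for 48 genes and -0.03 for 25 genes. The 44 tested members with a bacterial counterpart had a median of -0.06, and the 29 without one had a median of -0.01.

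Among large subunit genes the lowest value was that of Mrpl36, which encodes a very small protein with a bacterial counterpart. Its normalized log2 signal was 10.07, 10.50 and 10.20 on knockdown arrays 4, 5 and 6, against 10.83, 10.48 and 10.85 on control arrays 1, 2 and 3. Knockdown array 5 lay just above control array 2, so the groups overlapped. The log2 fold change was -0.46 ± 0.20 (SE), 1.38-fold lower, with an interval of -0.92 to -0.0059, a limma p of 0.048 for this gene alone and an adjusted p of 0.998. It was the single member with an unadjusted p under 0.05, where 1.87% of all genes had one with a lower value. A two-sided exact permutation test of its 6 values gave p = 0.2. The 250 bases before 1 annotated start are shown because it had the largest fitted difference of the family, with matches to the motifs of YY1 and of E-box factors in capitals (GRCm38.p6 from RefSeq, chr13:73330759-73331008, plus strand). The annotated span of the gene begins further upstream, at 73328503, so these bases lie within it.
Mrpl36 upstream: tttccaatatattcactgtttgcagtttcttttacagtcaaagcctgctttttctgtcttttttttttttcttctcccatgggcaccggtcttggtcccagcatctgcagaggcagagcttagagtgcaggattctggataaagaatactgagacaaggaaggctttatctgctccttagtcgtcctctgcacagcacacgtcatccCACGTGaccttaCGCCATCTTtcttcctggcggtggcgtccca

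Mrpl46, a large subunit protein without a bacterial counterpart, was 1 of the 2 members whose groups did not overlap. Its log2 signal was 9.35, 9.67 and 9.38 in knockdown, against 9.67, 9.80 and 9.90 in control, and knockdown array 5 and control array 1 differed only in the fourth digit. The log2 fold change was -0.32 ± 0.18 (SE, interval -0.73 to 0.08, limma adjusted p = 0.998). Mrps11, a small subunit protein of the platform on which the message lies, was the lowest of the small subunit genes. It had 9.33, 10.03 and 9.57 in knockdown, against 9.87, 9.82 and 10.08 in control, with overlap through knockdown array 5 and a log2 fold change of -0.28 ± 0.22 (SE, interval -0.78 to 0.23). Both of its detected probes were fitted lower, at -0.28 and -0.16.

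Mrpl46 and Mrps11 are head-to-head neighbours on chromosome 7. RefSeq places their start sites 42 bases apart on opposite strands, so that both of these low members share the stretch between the starts. It is printed on the plus strand, in the direction of Mrps11 (GRCm38.p6, chr7:78783090-78783130), and none of the motifs searched matched within it.
Mrpl46 and Mrps11 shared stretch: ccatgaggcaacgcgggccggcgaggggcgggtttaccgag

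The other member without overlap was Mrps6, a small subunit protein with a bacterial counterpart. Its log2 signal was 12.20, 12.19 and 12.25 in knockdown, against 12.63, 12.33 and 12.30 in control. The knockdown arrays lay within a narrow band just below the lowest control array, and control array 1 stood higher than the other controls. The log2 fold change was -0.21 ± 0.17 (SE, interval -0.60 to 0.19, limma adjusted p = 0.998). For Mrpl46 and for Mrps6 the two-sided exact permutation p was 0.1, the smallest that 3 arrays against 3 allow. Every gene without overlap, 7.83% of all genes, gives this value in that test, so it adds nothing to the lack of overlap. In the authors' processed values 1 member had no overlap, where 7.48% of all genes showed none. Under 75th percentile scaling or without normalization between arrays 0 members had no overlap, where 7.03% and 2.17% of all genes showed none.

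Mrpl9, a large subunit protein with a bacterial counterpart, had 9.41, 9.04 and 10.13 in knockdown, against 9.80, 9.67 and 10.16 in control. The knockdown arrays were spread more widely than the control arrays, and its log2 fold change was -0.35 ± 0.29 (SE, interval -1.03 to 0.32). It moved by over 1.5 times with single arrays: it was -0.65 without knockdown array 6, -0.11 without knockdown array 5 and -0.21 when control array 3 was left out. Mrpl4, another large subunit protein, had 8.93, 9.14 and 8.88 in knockdown, against 9.07, 9.42 and 9.22 in control, at -0.25 ± 0.18 (SE, interval -0.67 to 0.16). Its groups overlapped only through knockdown array 5 and control array 1.

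The members fitted highest in knockdown were 4 large subunit genes and Mrps18a. Mrpl39, whose protein resembles part of a threonyl tRNA synthetase, had 6.96, 7.46 and 6.78 in knockdown, against 6.69, 7.22 and 6.52 in control, at 0.26 ± 0.26 (SE, interval -0.34 to 0.85). Its value depended on single arrays, at 0.058 without knockdown array 5, 0.11 without control array 3, 0.41 without knockdown array 6 and 0.47 without control array 2. Mrpl20, whose bacterial counterpart binds ribosomal RNA early in assembly, had 9.89, 10.92 and 10.26 in knockdown, against 10.37, 9.90 and 10.05 in control, at 0.25 ± 0.28 (SE, interval -0.39 to 0.90). The Mrpl20 value came from knockdown array 5, and without that array it was -0.03. Mrps18a, the protein named for the small subunit that lies in the large one, had 10.45, 10.30 and 9.99 in knockdown, against 9.93, 10.25 and 9.89 in control, at 0.22 ± 0.20 (SE, interval -0.23 to 0.68). The groups overlapped in all 3 of these genes. Mrpl14, a protein of the face that meets the small subunit, was at 0.20 ± 0.20 and Mrpl52, which has no bacterial counterpart, at 0.19 ± 0.19 (SE), also with overlap.

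**Figure D2:**
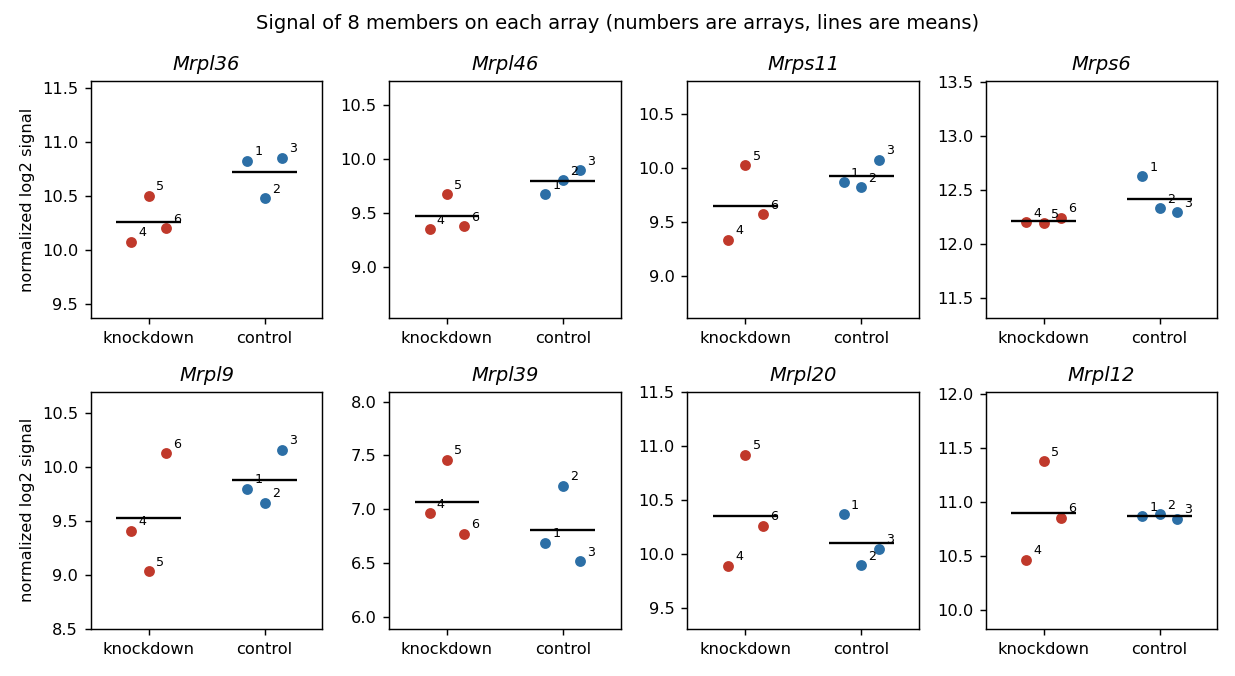
Normalized log2 signal of 8 members on each knockdown array (red, left) and control array (blue, right). Numbers name the array and black lines are group means of 3 arrays. Each panel spans the same height in log2 units. Mrpl46 and Mrps6 show no overlap, while knockdown array 5 reaches into or above the control range in Mrpl36, Mrps11, Mrpl39, Mrpl20 and Mrpl12.

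Members with well known roles or human disease links fell on both sides of 0. Mrpl12 forms the stalk that recruits translation factors and also binds the mitochondrial RNA polymerase. It had 10.47, 11.38 and 10.85 in knockdown, against 10.87, 10.88 and 10.85 in control. The knockdown arrays lay on both sides of a narrow control range, and the log2 fold change was 0.03 ± 0.24 (SE, interval -0.53 to 0.59). Mrps12, a protein of the decoding centre, had 9.78, 10.25 and 10.27 in knockdown, against 10.10, 9.80 and 10.49 in control, at -0.03 ± 0.24. Mrpl11, at the base of the stalk, was among the lower members at -0.25 ± 0.18, and Mrpl44, whose protein has a fold of the RNase III family, at -0.16 ± 0.19.

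Mrps22, mutated in a human disorder of mitochondrial energy production, had the largest spread of the family within groups, a residual SD of 0.459. Its log2 signal was 8.32, 9.58 and 9.17 in knockdown, against 9.13, 9.28 and 9.22 in control. Knockdown array 4 lay below all control arrays and array 5 above them, and its log2 fold change of -0.19 ± 0.31 was 0.16 without array 4. Mrpl3 and Mrps16, linked to related human disorders, were at -0.16 ± 0.22 and -0.10 ± 0.21. Mrps27, a protein with pentatricopeptide repeats, was at -0.10 ± 0.26. At the other end, Mrps23 had a residual SD of 0.0618, with a log2 fold change of 0.03 ± 0.16. These extremes of spread were chosen after the values were seen.

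Differences among arrays of the same group were larger than the difference between groups. Relative to each gene's mean over the 6 arrays, the median member deviated by -0.18, 0.21 and -0.10 log2 units on knockdown arrays 4, 5 and 6, against -0.05, 0.13 and 0.01 on control arrays 1, 2 and 3. Knockdown array 5 lay above a member's mean for 66 of 73 members, while arrays 4 and 6 lay below it for 55 each. Among controls, array 2 lay above the mean for 55 members and array 1 below it for 48. The mean of the array medians was -0.02 ± 0.20 in knockdown and 0.03 ± 0.09 in control (SD, n = 3 each).

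Array 5 gave the highest of the 6 values for 32 members (43.8%), against 19.7% of all genes, and array 4 the lowest for 34 (46.6%), against 25.9% of all genes. The median of all genes was within 0.02 log2 units of 0 on every array, which quantile normalization largely brings about. These shifts are thus relative to the bulk of genes, and that median is no evidence about them. Between knockdown arrays 5 and 4 the median member differed by 0.40 log2 units, and 61 of 73 members were higher on array 5, where 51.2% of all genes were. Both subunits took part, with medians on arrays 4, 5 and 6 of -0.17, 0.18 and -0.11 for the large and of -0.18, 0.22 and -0.08 for the small subunit.

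**Figure D3:**
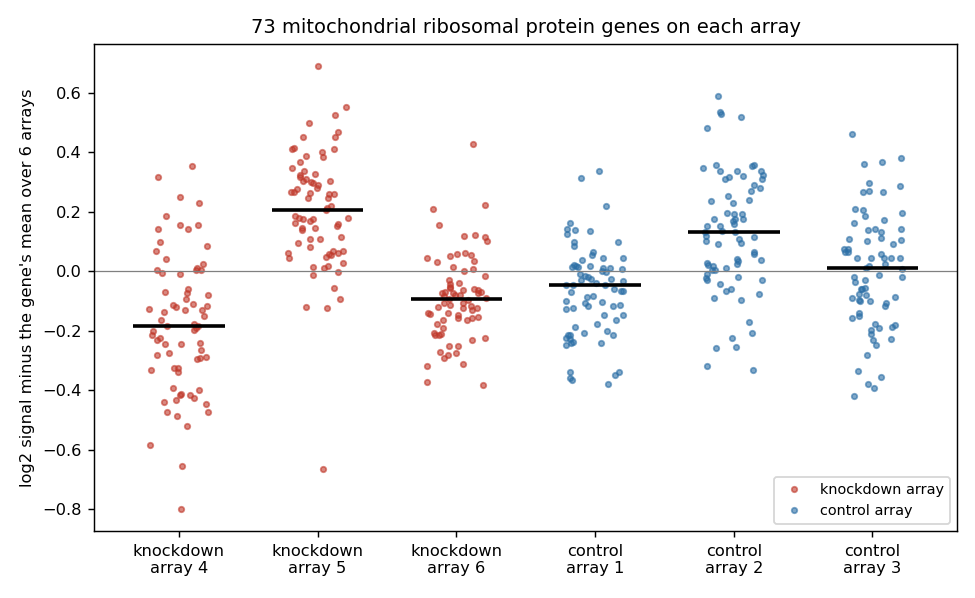
Log2 signal of each of the 73 members minus that gene's mean over 6 arrays, by array, with knockdown arrays in red and control arrays in blue. Each point is a gene and the bar is the median. The medians of knockdown arrays 4 and 5, at -0.18 and 0.21, lie further apart than any other pair.

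Some members did not follow this order, and 18 of the 73 lay above their own mean on knockdown array 4. Mrpl43, Mrpl51, Mrps18a and Mrps34 were highest of all on knockdown array 4, and Mrpl9, Mrpl27 and Mrps6 were lowest on knockdown array 5. Mrpl49, Mrpl50 and Mrps23 were lowest on control array 2. The fitted median of the family turned with the arrays: it was 0.04 without knockdown array 4, with 49 members higher and 24 lower, and -0.13 without array 5, with 12 higher and 61 lower. Without array 5 the groups did not overlap for 18 of the 73 members, all lower in knockdown. In that fit 19.8% of all genes showed no overlap, counted in both directions. Array 5 was the knockdown array on which most members were high, so leaving it out lowers their fitted values, and this count is no result about knockdown. In neither fit did any member pass the limma test.

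Markers of proliferation moved with these arrays more strongly. The 11 tested of 12 on the array, among them Top2a, Cdk1, Pcna and the Mcm helicase genes, had median deviations of -1.48, 0.85 and -0.23 on knockdown arrays 4, 5 and 6, against 0.62, 0.17 and 0.04 on control arrays 1, 2 and 3. In the comparison of groups 10 of these 11 genes were fitted lower in knockdown, with a median log2 fold change of -0.42. The groups overlapped for all 11 proliferation markers, and 0 had an unadjusted limma p under 0.05. The median interval of these markers reached 1.25 log2 units to each side, so a lower level in knockdown is not shown. The order differed from that of the ribosomal genes on control array 1, where proliferation markers were above and 48 ribosomal members below their mean. The 6 tested mesenchymal markers stood at 0.68, -0.30 and 0.16 on the knockdown arrays, against 0.13, -0.56 and -0.23 on the control arrays. All 6 were fitted higher in knockdown, with a median of 0.34. Their groups all overlapped, their median interval reached 0.70 to each side, and 1 had an unadjusted limma p under 0.05. The 6 tested lens epithelial markers were at 0.53, -0.27 and -0.18, against -0.15, 0.16 and 0.36. Of these, 2 were fitted higher and 4 lower in knockdown, from -0.65 to 1.00 with a median of -0.34. Array 4 also had the lowest mean correlation with the other arrays over all genes, 0.957, where the others had 0.971 to 0.976. The part of these differences in the ribosomal values was not tested.

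The respiratory chain genes of the nucleus, whose products work beside the proteins that these ribosomes make, showed nearly the same values by array. Their 70 tested members had median deviations of -0.13, 0.18 and -0.08 on knockdown arrays 4, 5 and 6, against -0.08, 0.13 and 0.02 on control arrays 1, 2 and 3. Their median log2 fold change was -0.04, with 28 higher and 42 lower and 0 past the test. The largest differences were those of Ndufa12 of complex I at -0.59 ± 0.27 (SE) and of the cytochrome oxidase subunits Cox7b at 0.47 ± 0.23 and Cox6c at 0.47 ± 0.23. The knockdown arrays lay above the control arrays for Cox7b and overlapped for the other 2 genes.

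Genes for proteins of the cytosolic ribosome had 23 of 53 tested members fitted higher and 30 lower, with a median log2 fold change of -0.02 and 0 past the limma test. Some of their probes lay near the top of the scale and changed little with the scale of the array. Rplp1, a stalk protein, had 37170, 37395 and 38552 intensity units on knockdown arrays 4, 5 and 6, against 40268, 39182 and 38993 on control arrays 1, 2 and 3. The size of this list's spread is therefore not compared with that of the mitochondrial ribosomal genes. Its median deviations were -0.06, 0.06 and -0.04 on knockdown arrays 4, 5 and 6. On control arrays 1, 2 and 3 they were -0.09, 0.06 and 0.03. As in the mitochondrial ribosomal genes, array 5 was highest in knockdown and array 2 in control, but the lowest median was on control array 1. Rpl22l1, a paralogue of Rpl22, had the largest difference at 0.37 ± 0.24 (SE), followed by Rps13 at -0.30 ± 0.20 and Rps3 at -0.26 ± 0.18.

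**Figure D4:**
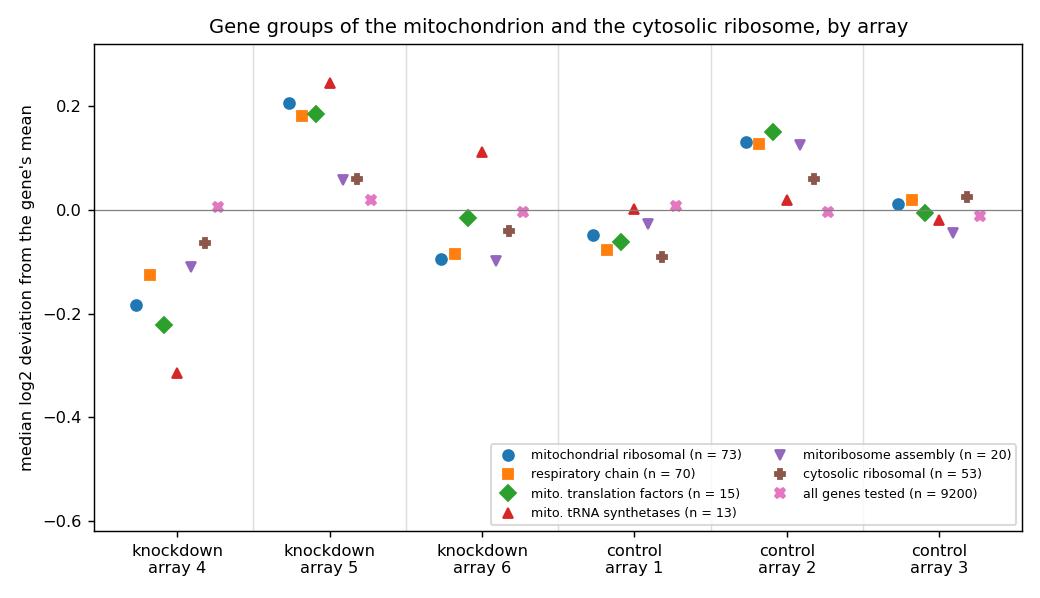
Median log2 deviation from each gene's own mean, by array, for 6 gene groups and for all genes tested, with the number of genes in the legend. Knockdown arrays are on the left and control arrays on the right. Mitochondrial ribosomal and respiratory chain genes lie close together on each array. All genes tested stay near 0, which quantile normalization largely brings about.

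Of the other genes needed for mitochondrial translation, none passed the limma test either. Besides the Mrp genes, 4 genes for proteins of the same ribosome were tested, with 3 higher and 1 lower, the last being Dap3 at -0.14 ± 0.20 (SE). Among 20 tested genes for assembly of the ribosome and processing of its RNA, 11 were higher and 9 lower, with a median of 0.01. Rbfa, which acts in maturation of the small subunit, had 8.63, 8.50 and 8.77 in knockdown, against 8.86, 9.24 and 9.34 in control. Its groups did not overlap, and its log2 fold change of -0.51 ± 0.19 (SE, limma adjusted p = 0.998) was the largest of that list. The GTPase gene Mtg1 was at -0.38 ± 0.24 and Mterf3, a factor of mitochondrial transcription and ribosome formation, at 0.33 ± 0.28, with overlap in both.

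The 15 tested translation factor genes had 6 higher and 9 lower and a median of -0.09. Their median deviations were -0.22, 0.19 and -0.02 on knockdown arrays 4, 5 and 6. On control arrays 1, 2 and 3 they were -0.06, 0.15 and -0.01. The elongation GTPase gene Guf1 was at -0.54 ± 0.33 (SE) and the initiation factor gene Mtif2 at -0.38 ± 0.34. Leaving out each array in turn gave -0.92 to -0.29 for Guf1 and -0.77 to -0.15 for Mtif2, in both with the lowest value when knockdown array 6 was left out. The release factor gene Mtrf1l was at 0.39 ± 0.19, without overlap between groups, at 8.29, 8.39 and 7.89 in knockdown, against 7.88, 7.83 and 7.68 in control. Knockdown array 6 and control array 1 were nearly equal for this gene. Among 13 mitochondrial tRNA synthetase genes 6 were higher and 7 lower, with a median of -0.03. Sars2 was at -0.39 ± 0.23, Pars2 at -0.36 ± 0.21 and Cars2 at 0.30 ± 0.38, and for Pars2 the knockdown arrays lay below the control arrays. Pars2 was dim, with a log2 signal of 5.31 on knockdown array 6, where the lowest detected signal was 5.25. Over 11 other ways of processing all arrays its value ran from -0.54 to -0.09. For Aars2, at 0.19 ± 0.16, the knockdown arrays lay above the control arrays. Aars2 was detected on 3 knockdown arrays and 1 control array, so it entered only through the knockdown group. Its log2 signals were 5.38, 5.47 and 5.51 in knockdown, against 5.31, 5.28 and 5.21 in control. They lay near background, which limits what this separation can show.

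Genes for copying and transcribing mitochondrial DNA numbered 9 in the test, with 4 higher and 5 lower and a median of -0.03. Twnk, the helicase of mitochondrial DNA, was at 0.43 ± 0.22 (SE), the polymerase subunit gene Polg2 at 0.32 ± 0.27 and the transcription factor gene Tfb2m at 0.23 ± 0.16. For Tfb2m the knockdown arrays lay above the control arrays, as for 4.33% of all genes, and the groups of Twnk and Polg2 overlapped. Without knockdown array 4 Polg2 was at 0.026. Of 7 tested regulators of mitochondrial biogenesis, 5 were higher and 2 lower, with Myc at -0.31 ± 0.33 and the nuclear receptor gene Esrra at 0.22 ± 0.20.

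Many of the members share features of their promoters. RefSeq promoter windows, 250 bases before to 50 after the annotated start, were matched for 65 of the 73 tested members, 71 windows in all, and motifs were searched on both strands. The ETS motif CCGGAAG was present in 26 of the 71 windows, 36.6%, against 18.1% of the windows of all genes tested and 8.86% of all windows in the table. The NRF1 consensus, named for a regulator of mitochondrial genes, was present in 16.9%, against 10.4% of tested genes and 4.6% of all. The YY1 motif AANATGGCG was present in 15.5%, against 5.08% and 2.38%. The E-box CACGTG was at 9.86%, near the 10.3% of all genes tested. Matches of different motifs overlapped in 0 of the 71 windows. A match is only a description of letters in these windows.

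The same windows of the respiratory chain genes held the ETS motif in 24.6%, the NRF1 motif in 24.6% and the YY1 motif in 15.4%. Those of cytosolic ribosomal proteins held them in 37.7%, 9.43% and 9.43%. A start site of another gene on the opposite strand, pointing away and within 1000 bases, was annotated for 24 of the 65 members, 36.9%, against 20.4% of genes tested. The share was 30% for respiratory chain genes and 15.6% for cytosolic ribosomal proteins. For some of the 24 members the partner also serves the mitochondrion. Mrps12 faces Sars2, which charges serine onto mitochondrial tRNA, across 146 bases. Mrpl43 faces Twnk across 115 bases that hold 2 matches to the ETS motif, in capitals below. Both stretches are given on the plus strand (GRCm38.p6, chr7:28741822-28741967 and chr19:45006443-45006557), to set beside the values of the paired genes.
Mrps12 and Sars2 shared stretch: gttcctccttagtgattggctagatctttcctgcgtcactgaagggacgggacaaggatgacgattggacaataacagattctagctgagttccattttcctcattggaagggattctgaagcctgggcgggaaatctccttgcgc
Mrpl43 and Twnk shared stretch: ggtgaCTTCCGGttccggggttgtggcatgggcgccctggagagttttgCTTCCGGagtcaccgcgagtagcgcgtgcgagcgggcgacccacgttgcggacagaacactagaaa

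The genes on either side of these stretches did not have the same values. Mrps12 was at -0.03 ± 0.24 log2 units (SE) and Sars2 at -0.39 ± 0.23, and Sars2 had 6.17, 6.32 and 6.85 in knockdown, against 6.70, 6.72 and 7.08 in control. Mrpl43, a large subunit protein without a bacterial counterpart, was at 0.10 ± 0.17 and Twnk at 0.43 ± 0.22, with 7.15, 6.64 and 6.78 in knockdown, against 6.65, 6.09 and 6.54 in control. Groups overlapped in all 4 genes. Whether paired genes differ was not tested.

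Genes with more than 1 detected probe show how far probes limit the values. Of 26 such members, 12 had probes with fitted differences of opposite sign. The widest gaps were in Mrpl51, with 3 probes from -0.17 to 0.36, and in Mrpl18, with -0.16 for the brighter probe and 0.38 for the other. The probes at 0.36 and 0.38, and that of Mrpl1 at 0.20, were each detected on 3 knockdown and 2 control arrays. They lay near background and entered only through the knockdown group. The Mrpl51 probe at -0.17, detected on 2 knockdown and 3 control arrays, entered only through the control group. The filter thus favours the signs of these 4 probes. Mrps25 ranged from -0.25 to 0.08 over 3 probes, Mrpl1 from -0.11 to 0.20, Mrpl15 from -0.10 to 0.09 over 4 probes and Mrps18b from -0.03 to 0.16 over 3. Of the 109 member probes fitted by themselves 0 passed the limma test, where 0.00612% of all probes did, and 1 had an unadjusted p under 0.05, where 3.23% did. Groups did not overlap for 2 member probes, where this held for 7.79% of all probes.

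Some probes lay near or below detection. Mrpl19, Mrpl32 and Mrps14 had no detected probe and were not tested, with signals of 56.2 to 72.6 intensity units on every array. Just outside the limit was a probe of Mrpl15, with a highest detection p of 0.068 in its better group, followed by another of Mrpl15 and a probe of Mrps5, both at 0.075. Other probes represent both genes. Just inside were a second probe of Mrpl51 at 0.046 and the probe of Mrpl45 at 0.034. Mrpl45, which anchors the ribosome at the inner membrane, was thus measured close to background, and its log2 fold change of 0.0026 ± 0.21 (SE) cannot show that it is unchanged.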

How the data were processed

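RNA of 3 knockdown and 3 control samples was measured on Illumina arrays from biotinylated cRNA, per the labels' protocols. Per the file headers, the scanner table the authors deposited holds a linear intensity and, beside it, a detection p-value for each probe and array. Their second deposited table holds intensity values that are a straight line of the scanner values within each array. No source used here gives the software or settings. Scanner columns name the group and a running number, so they were assigned by group. Every column was assigned.

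From the deposited intensity values, neqc of limma 3.58.1 in R 4.3.3 gave background-corrected, quantile-normalized log2 signals, with an offset of 16, which understates changes of dim genes. A probe entered when detected (p under 0.05) on every array of the knockdown group, the control group or both, as 16349 of 45281 did. A gene was represented by its brightest probe. Platform annotation gave 1 symbol for 34885 probes. Of these, 34807 were matched by gene identifier to current symbols and 0 changed. Groups were compared with lmFit and eBayes over all 9200 genes with Benjamini-Hochberg adjustment. The fit was tested on simulated data. Fold changes are knockdown over control.

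Members and lists were chosen with earlier results of these data known. Genes are named by rule: Tdrd7; members with adjusted or unadjusted p under 0.05; the 5 highest and 5 lowest; those without overlap; up to 6 with disagreeing probes; 8 fixed members; and up to 3 of each other list. Other genes were named after their values were seen. Promoter sequences are from RefSeq (GRCm38.p6). Figures used matplotlib 3.10.9.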

Additional observations from a re-analysis of the deposited data

How the results depend on the processing

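Under all 17 alternatives, 6 of which leave out an array, 0 mitochondrial ribosomal protein genes passed the adjusted threshold in limma. Tdrd7 stayed lower, from -1.85 to -1.57 over the other 11 and from -2.15 to -1.65 leaving out each array in turn, with a lowest adjusted p of 0.14. The count of genes past the threshold was 0, and 1 with every probe by itself, where unnamed probes enter. Genes with an unadjusted p under 0.05 numbered 303, 98 without normalization between arrays, 782 with no filter, 814 with array weights, 528 for every probe, 429 with the replicate block, 107 when control array 3 was left out and 462 when knockdown array 5 was. The median of the ribosomal genes lay between -0.04 and 0.04 over the 11, and between -0.13 and 0.04 leaving out an array (small subunit -0.13 to 0.09, large subunit -0.13 to 0.02). Members without overlap numbered 2, where 7.83% of all genes had no overlap. They numbered 0 under 75th percentile scaling (7.03% of all genes), 0 when arrays were left unnormalized (2.17%) and 1 with the authors' values (7.48%). Leaving out an array gave 3 to 18. With 2 arrays against 3, groups overlap less often, and 10.5% to 20.9% of all genes had no overlap. The count differed by array, with 7 members without control array 1 (20.9% of all genes) and 18 without knockdown array 5 (19.8%). The median of mitochondrial transcription and DNA genes was 0.046 without normalization between arrays, 0.11 for every probe and 0.091 with array weights, and -0.0037 to 0.11 leaving out an array. Leaving out an array, medians also turned sign for translation factors (-0.16 to 0.081), assembly (-0.011 to 0.069), tRNA synthetases (-0.089 to 0.065), the respiratory chain (-0.099 to 0.029), cytosolic ribosomal proteins (-0.046 to 0.024), other proteins of the mitochondrial ribosome (-0.13 to 0.16) and biogenesis regulators (-0.0072 to 0.13). None of these medians has a stable direction. Of 49 named genes besides Tdrd7, 33 kept their sign under every alternative, though leaving out 1 array moved 27 of these by over 1.5 times, and the lowest adjusted p of any was 0.47. Mrps12 was at 0.0275 with 75th percentile scaling, 0.0454 without normalization between arrays and 0.0405 when probes of a gene were averaged. That averaging put Mrpl18 at 0.11, Mrps25 at -0.0634, Mrpl1 at 0.0454 and Mrpl15 at -0.0157. Array weights put Mrpl15 at -0.000737 and Gabpb1 at -0.0388. Leaving out each array in turn, values ranged from -0.0338 to 0.15 for Mrpl15, -0.20 to 0.58 for Gabpb1, -0.32 to 0.16 for Mrpl1, -0.24 to 0.0387 for Mrps16, -0.33 to 0.11 for Mrps27, -0.0785 to 0.28 for Gadd45gip1, -0.11 to 0.64 for Cars2, -0.0677 to 0.25 for Mrpl51, -0.19 to 0.16 for Mrps12, -0.10 to 0.33 for Ptcd3, -0.32 to 2.1e-04 for Mrpl18, -0.25 to 0.0178 for Mrpl3, -0.47 to 0.16 for Mrps22, -0.0297 to 0.48 for Mrpl20, -0.18 to 0.34 for Mrps25 and -0.21 to 0.25 for Mrpl12. None of these genes had a call, and the cause was not tested.

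The replicate block was fitted only with the authors' processed values, since scanner columns carry no replicate number and were assigned by group. Straight lines tie control replicates 1, 2 and 3 to arrays 1, 2 and 3. They tie knockdown replicates 1, 2 and 3 to arrays 4, 5 and 6. The block was not fitted on the normalized scanner values. With the replicate block 0 genes and 0 members passed, and 1 member had no overlap (7.48% of all genes). The median of the ribosomal genes was -0.04, as without the block on those values. Each replicate number has a sample in both groups, so the block cannot change fitted differences, and the overlap count does not use it. Neither value is therefore a check of pairing. Deviations of samples with the same number correlated at -0.10, 0.13 and 0.59 over all genes, which does not make them pairs. The files give no slide to use as a block. Dim probes near background limit what Mrpl45, Mrpl51, Aars2, Pars2 and the dimmer probes of Mrpl18 and Mrpl1 can show.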
